A study of Homo sapiens with 6 samples.

Results

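Enzymes that handle aldehydes, steroids and foreign compounds were compared in SW480 cells grown on a soft and a stiff hydrogel. The members were all rows of the deposited mRNA table whose symbol begins with ALDH, AKR, CYP and a digit, UGT and a digit, GST and a letter, SULT, ADH and a digit, HSD and a digit, or NQO, together with CDA. The rule goes by gene name, with CDA named singly, and it found 55 of the 8529 genes in the table. They were 13 aldehyde dehydrogenases (ALDH), 7 aldo-keto reductases (AKR), 12 cytochromes P450 (CYP), 3 UDP-glycosyltransferases (UGT), 7 glutathione S-transferases (GST), 8 hydroxysteroid dehydrogenases (HSD), 2 quinone reductases (NQO), and SULT1A4, ADH5 and CDA. RefSeq lists 170 protein-coding symbols that meet the rule, and the 115 others were not analysed here.

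SW480 is a human colorectal adenocarcinoma line. Wild-type SW480 cells were cultured for 72 h on plates coated with hydrogel of 2 kPa or of 25 kPa, in L-15 medium with serum and without added CO2, and the comparison asks which transcripts differ with the stiffness of the substrate. RNA was sequenced in 3 libraries at 2 kPa and 3 at 25 kPa, which the labels number and the study's methods call triplicate. The p-values therefore measure the spread between these libraries of 1 line. Levels are FPKM, fragments per kilobase of transcript scaled to the mapped fragments of a library, which accounts for transcript length. The transcripts that each symbol covers are not stated, and GAPDH was listed at only 0.32 to 3.35 FPKM. Comparisons of level between genes are therefore uncertain.

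These enzymes work in sequence. Phase I enzymes, such as the P450s, the aldo-keto reductases and the alcohol and aldehyde dehydrogenases, oxidise or reduce a compound, and phase II enzymes attach glucuronic acid, sulphate or glutathione so that the product can leave the cell. The same families make and break down steroids, retinoids and vitamin D, and in the gut epithelium they meet compounds from food, bile and drugs. CDA, cytidine deaminase, belongs to pyrimidine salvage and inactivates cytidine-type drugs such as gemcitabine.

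The members spanned a wide range of levels. Of the 55 members, 15 had a mean of at least 10 FPKM over the 6 libraries, 21 lay between 1 and 10, and 19 lay below 1, with a median of 1.73 FPKM. GSTP1, a glutathione S-transferase that detoxifies electrophiles, stood far above the rest at 569 to 812 FPKM and made up 65.2% to 71.7% of the summed FPKM of all members in each library. The next most abundant members were ADH5 (38.3 FPKM), HSD17B4 (24.6 FPKM), ALDH9A1 (24.5 FPKM) and ALDH2 (22.9 FPKM). At the other end, AKR1B15, ALDH1A1 and GSTM3 were at most 0.09 FPKM in every library. Without GSTP1 the summed level of the other 54 members was 304 to 323 FPKM at 2 kPa and 321 to 339 FPKM at 25 kPa, and these ranges overlapped.

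**Figure D1:**
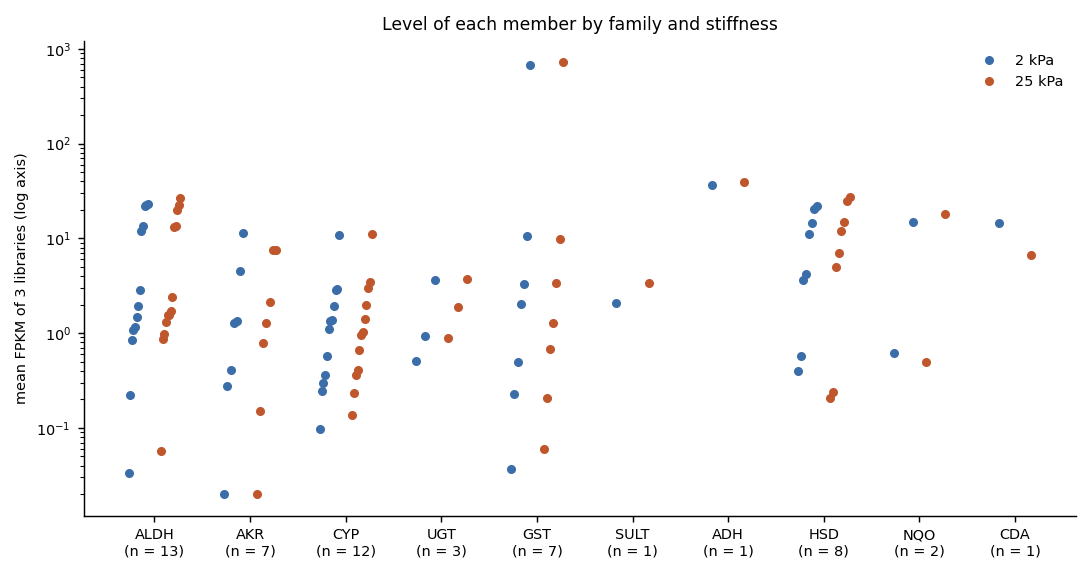
Mean FPKM of each of the 55 members over the 3 libraries of a group (log axis), by enzyme family, at 2 kPa (blue) and 25 kPa (orange). A single point, GSTP1, lies far above the rest, and in every family the points of both stiffness levels cover much the same range except for CDA and SULT1A4, which are single genes.

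Between the 2 stiffness levels, 0 of the 55 members had an adjusted p under 0.05 by limma on log2(FPKM + 1), against 0.117% of all genes. At an unadjusted p under 0.05, limma gave 9 members (16.4%), of which 6 were higher and 3 were lower on the stiff gel. Among all 8529 genes the share was 10.2%, with 6.96% higher and 3.19% lower. The 3 libraries at 25 kPa lay wholly outside the range of the 3 at 2 kPa for 13 members (23.6%), against 16% of all genes; 9 of these members were higher at 25 kPa (11.2% of all genes were) and 4 were lower (4.78% of all genes). For each of them the two-sided exact permutation test gave p = 0.1, which no comparison of 3 with 3 libraries can go below. Overlap of libraries was judged on the FPKM as deposited, here and for single genes below. The library sums ran from 201030 FPKM (2 kPa replicate 2) to 263028 FPKM (25 kPa replicate 2). Whether the libraries of single genes stayed apart after rescaling was not examined, and narrow separations may not. Without CDA, which fits none of the family names, 8 of 54 members (14.8%) had an unadjusted p under 0.05 and 12 (22.2%) did not overlap. The median log2 fold change of the members was 0.05, the same as that of all genes. The balance of directions depended on the scaling between libraries. After rescaling to equal library sums, 3 members were higher and 3 lower at an unadjusted p under 0.05 (297 and 398 of all genes, against 594 and 272 as deposited), and after quantile normalisation or median centring 5 were higher and 4 lower.

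**Figure D2:**
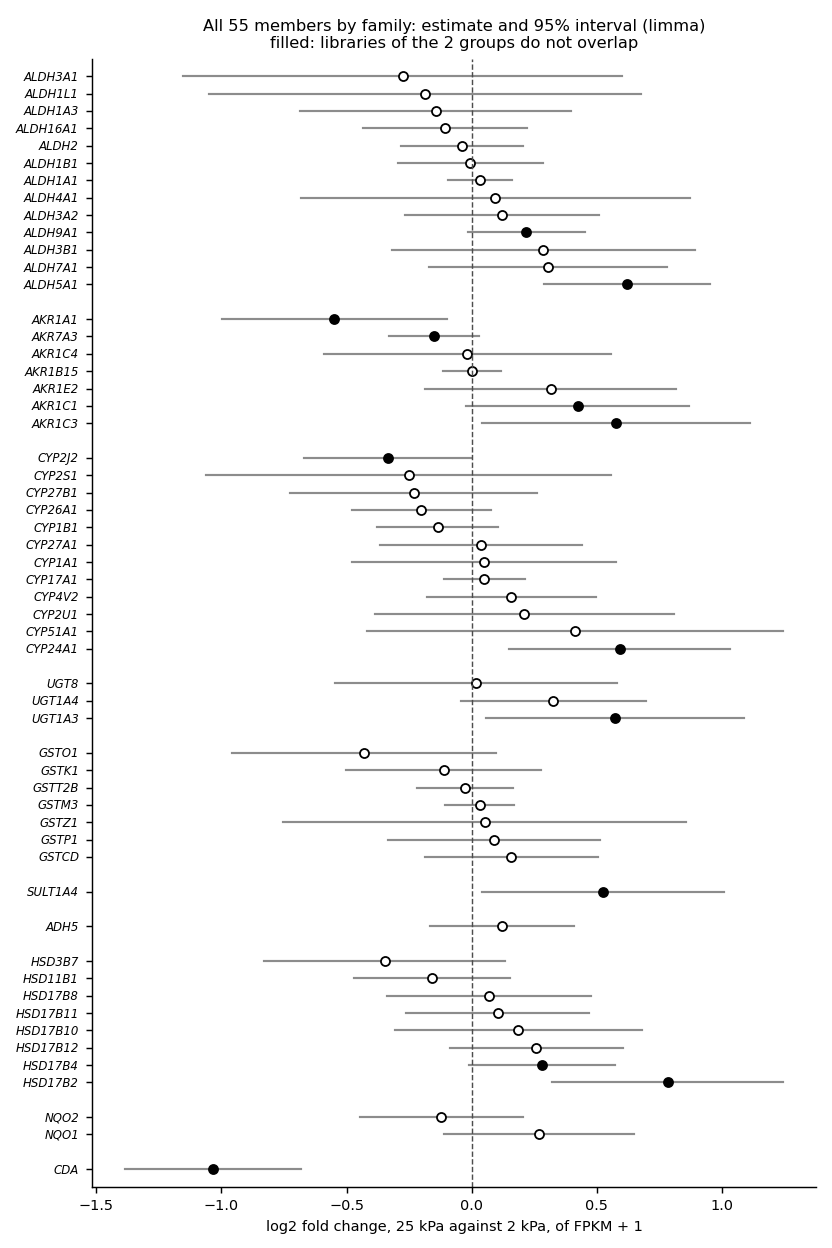
Log2 fold change of FPKM + 1 at 25 kPa against 2 kPa for each of the 55 members, by family, with its 95% interval from limma (lines) and filled points where the libraries of the groups do not overlap. On this scale CDA lies furthest to the left at −1.03 and HSD17B2 furthest to the right at 0.78, and most intervals cross 0.

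The libraries also differed in a way that stiffness does not account for. The first principal component of all genes, with 33.8% of the variance, separated 2 kPa replicates 1 and 3 and 25 kPa replicate 2 from the other 3 libraries, while the second, with 27.2%, separated the stiffness levels. With this split as a block, chosen after seeing the data, CDA alone among the members passed the adjusted threshold (limma adjusted p = 0.0461). Of 14 markers of colorectal epithelium 8 had a row, led by KRT18 at 2611 to 3358 FPKM, whereas KRT20 and CDX1 were at most 0.24 FPKM. CDX2, the intestinal homeobox factor, was 0.57, 0.79 and 0.67 FPKM at 2 kPa and 0.31, 0.27 and 0.07 FPKM at 25 kPa. Of 10 fibroblast markers 4 had a row, with a summed level of 0.84 to 2.22 FPKM at 2 kPa and 2.93 to 3.20 FPKM at 25 kPa, most of it ACTA2. Of 9 immune markers 3 had a row, with 3.98 to 5.47 FPKM at 2 kPa and 2.39 to 3.59 FPKM at 25 kPa. Of 8 hepatocyte markers 2 had a row, at no more than 0.53 FPKM. No value in the table is 0. GAPDH was 3.35 and 2.35 FPKM in 2 kPa replicates 1 and 3 and 3.25 FPKM in 25 kPa replicate 2. It was 0.32 FPKM in 2 kPa replicate 2 and 0.77 and 1.11 FPKM in 25 kPa replicates 1 and 3. GAPDH thus divided the libraries as the first component did, so that comparisons of 1 gene between libraries are uncertain too. The part of these differences in the results for the enzymes was not tested.

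CDA had the smallest p of all members. The rule named it singly, and the paper lists it among the most differentially expressed genes of these same libraries. Its rank among the members is thus not separate evidence. The level of CDA was 13.2, 16.2 and 14.3 FPKM on the soft gel and 5.74, 6.53 and 7.59 FPKM on the stiff gel. All 3 stiff-gel libraries were thus well below the lowest soft-gel library, and the mean at 25 kPa was 0.454 times that at 2 kPa. The log2 fold change was −1.03 (95% interval −1.39 to −0.68), and the limma adjusted p = 0.0583 missed the threshold. CDA passed the threshold in 5 of 15 other settings, in which the adjusted p ranged from 0.0330 to 0.283 and the log2 fold change from −1.15 to −0.95. In bulk RNA, fewer cells that express a gene and less of its RNA per cell cannot be told apart.

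In GRCh38, CDA spans 20588948 to 20618908 of chromosome 1 (forward strand), and no 50-base stretch of its transcripts occurs in another gene of the annotation. The RefSeq window around its start is shown because CDA had the smallest p of the members. It covers chr1:20588847-20589146 of GRCh38.p14, forward strand, with the 50 bases from the RefSeq start on in capitals. The span above comes from another annotation, GENCODE, and begins among the lower-case bases. Part of the bases before the RefSeq start thus lies inside that span.
CDA: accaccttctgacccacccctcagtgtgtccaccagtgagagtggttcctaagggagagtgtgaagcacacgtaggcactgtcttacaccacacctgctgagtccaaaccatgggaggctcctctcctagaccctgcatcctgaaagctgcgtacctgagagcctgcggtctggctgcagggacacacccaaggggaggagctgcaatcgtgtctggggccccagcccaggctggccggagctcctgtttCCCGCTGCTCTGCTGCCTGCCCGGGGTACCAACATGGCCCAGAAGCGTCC
The window has 62% G and C and 8 CpG. Of 6 motifs searched on both strands, the TATA box with the letters TATAAA occurs in 11.5% of all 35116 windows. The letters of an AP-1 site, TGANTCA, occur in 7.71%, those of the antioxidant response core, TGACNNNGC, in 13.4%, and those of the xenobiotic response core, GCGTG, in 36.5%. A CCAAT box, named by its letters, occurs in 34.6% and a TEAD site, GGAATG, in 14% of the windows. None of these strings of letters occurs in the CDA window.

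Of 27 other genes of pyrimidine salvage and breakdown, 17 had a row. Of these, 13 (8 after rescaling to equal library sums) had a log2 fold change above 0. As deposited this was 76.5%, against 59.6% of all genes. None of the 17 passed at an adjusted p under 0.05 by limma (0 genes), while 5 (29.4%) had an unadjusted p under 0.05. All 5 were higher at 25 kPa (3 after that rescaling). Among all genes 10.2% had such a p, 6.96% higher and 3.19% lower. TK1, cytosolic thymidine kinase, was 0.84, 1.40 and 1.56 FPKM at 2 kPa and 2.31, 4.30 and 2.46 FPKM at 25 kPa, which gave a log2 fold change of 0.81 (adjusted p = 0.341 by limma). TYMS, thymidylate synthase, was 31.8, 36.4 and 23.4 FPKM at 2 kPa and 50.5, 37.9 and 53.2 FPKM at 25 kPa, which gave a log2 fold change of 0.62 (adjusted p = 0.3004 by limma). DCK, the kinase that phosphorylates deoxycytidine and so acts on the substrates that CDA removes, was 6.12, 5.83 and 5.06 FPKM at 2 kPa and 8.34, 7.83 and 8.28 FPKM at 25 kPa. For these 3 genes, the libraries of the groups did not overlap, and the direction was opposite to that of CDA. CMPK1 and DPYD, the latter the enzyme that degrades uracil and fluorouracil, had log2 fold changes of 0.28 and 0.26. Their levels were at most 0.47 FPKM in every library, where the added 1 makes the log2 fold change small. The ratios of the means were 3.29 for CMPK1 and 3.54 for DPYD, against 2.39 for TK1. NT5C, a nucleotidase and the most abundant gene of the list, was 44.5 to 56.5 FPKM at 2 kPa and 44.9 to 57.4 FPKM at 25 kPa.

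**Figure D3:**
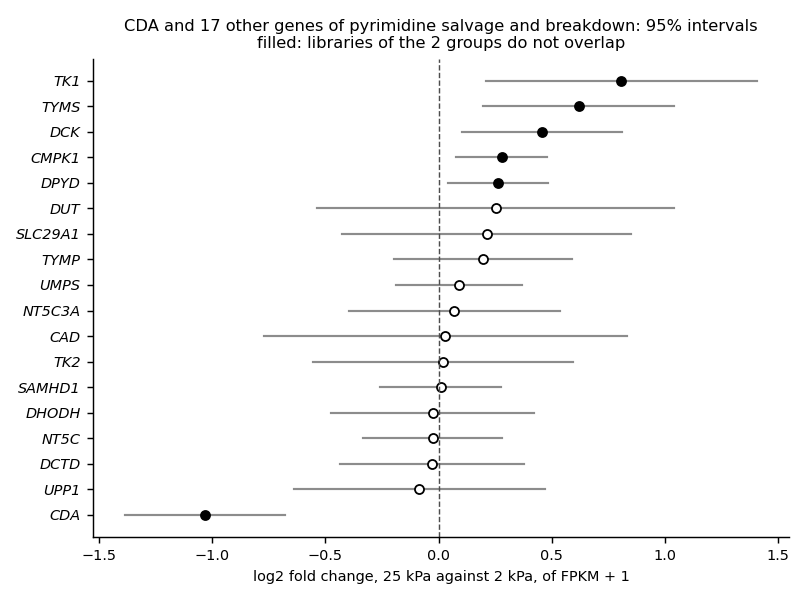
Log2 fold change of FPKM + 1 at 25 kPa against 2 kPa with its 95% interval (limma) for CDA and 17 other genes of pyrimidine salvage and breakdown, filled where the libraries of the groups do not overlap. CDA lies at −1.03, apart from the others, which range from −0.08 (UPP1) to 0.81 (TK1).

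Among the hydroxysteroid dehydrogenases, the HSD17B enzymes interconvert the active and less active forms of oestrogens and androgens, and several of them act mainly on fatty acids. HSD17B2, which oxidises oestradiol and testosterone to weaker ketones and is found in the gut lining, was 2.92, 3.67 and 4.38 FPKM at 2 kPa and 6.14, 6.68 and 8.13 FPKM at 25 kPa. The lowest stiff-gel library was above the highest soft-gel library, and the ratio of the means was 1.91. Its log2 fold change of 0.78 (95% interval 0.32 to 1.24) had a limma adjusted p = 0.227.

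HSD17B4, a peroxisomal enzyme of fatty acid oxidation and the most abundant member of the family, was 22.2, 19.7 and 24.5 FPKM at 2 kPa and 27.0, 24.5 and 29.8 FPKM at 25 kPa. Its groups were separated by 0.08 FPKM only, with a log2 fold change of 0.28 (95% interval −0.01 to 0.57, limma adjusted p = 0.513). The log2 fold changes, or estimates, of HSD17B8, HSD17B10, HSD17B11 and HSD17B12 lay between 0.07 and 0.26, with overlapping libraries and intervals that include 0. All 6 HSD17B estimates were thus above 0, with a median of 0.22 against 0.05 over all genes, and 4 of the 6 stayed above 0 after rescaling to equal library sums. The remaining members were HSD11B1, which regenerates cortisol, and HSD3B7, an enzyme of bile acid synthesis, both at most 1.15 FPKM in every library with estimates of −0.16 and −0.35. The summed level of the 8 HSD members was 80.1, 69.0 and 81.1 FPKM at 2 kPa and 94.3, 81.4 and 97.8 FPKM at 25 kPa, so that the groups almost met. As a share of all FPKM in a library the groups overlapped, at 0.0343% to 0.0344% at 2 kPa and 0.0309% to 0.0416% at 25 kPa.

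The aldo-keto reductases divided. AKR1C1, AKR1C3 and AKR1C4 reduce ketosteroids, AKR1C3 acting as a 17-ketosteroid reductase that forms testosterone, the reverse of the reaction of HSD17B2. AKR1C3 was 4.74, 4.36 and 4.57 FPKM at 2 kPa and 10.6, 6.77 and 5.31 FPKM at 25 kPa. The soft-gel libraries were close together, whereas the stiff-gel libraries spread over a wide range above them, and 25 kPa replicate 1 was the highest. The log2 fold change was 0.58 (95% interval 0.04 to 1.11, limma adjusted p = 0.453), and without 25 kPa replicate 1 it was 0.33. AKR1C1 was 1.46, 1.30 and 1.24 FPKM at 2 kPa and 2.38, 2.03 and 1.98 FPKM at 25 kPa, again without overlap, with a log2 fold change of 0.42 (95% interval −0.02 to 0.87, limma adjusted p = 0.521). AKR1C4, the mainly hepatic member, was 0.77 to 1.79 FPKM at 2 kPa and 0.72 to 1.73 FPKM at 25 kPa, with an estimate of −0.02.

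The 3 AKR1C genes are neighbours on chromosome 10 (GRCh38, forward strand), AKR1C1 from 4963253 to 4983283, AKR1C3 from 5035354 to 5107686 and AKR1C4 from 5195462 to 5218949. Their coding sequences of 969 bases are 91.4% identical between AKR1C1 and AKR1C3 and 88.5% identical between either and AKR1C4. The first 60 coding bases are shown because reads of these genes can be hard to assign, with the positions at which the 3 differ in capitals.
AKR1C1: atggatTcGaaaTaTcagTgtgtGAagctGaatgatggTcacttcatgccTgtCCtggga
AKR1C3: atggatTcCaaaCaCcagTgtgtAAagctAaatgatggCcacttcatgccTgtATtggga
AKR1C4: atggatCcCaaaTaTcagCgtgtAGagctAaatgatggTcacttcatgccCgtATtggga
Of the 50-base stretches in the transcripts of AKR1C1, 28.6% also occur in another gene, nearly all in AKR1C2, which had no row here, and for AKR1C3 this share was 4.53%. The level of AKR1C1 is therefore uncertain to the extent that the authors' counting split such reads.

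RefSeq gives 1 start window for AKR1C1 and 2 for AKR1C3, shown because the levels of these neighbours differed in the same direction. AKR1C1 covers chr10:4963165-4963464, AKR1C3 window 1 covers chr10:5048531-5048830 and AKR1C3 window 2 covers chr10:5094164-5094463, all on the forward strand of GRCh38.p14. The RefSeq starts in these windows lie inside the gene spans given above, which come from GENCODE. The capitals mark a run of 12 bases that all 3 windows share.
AKR1C1: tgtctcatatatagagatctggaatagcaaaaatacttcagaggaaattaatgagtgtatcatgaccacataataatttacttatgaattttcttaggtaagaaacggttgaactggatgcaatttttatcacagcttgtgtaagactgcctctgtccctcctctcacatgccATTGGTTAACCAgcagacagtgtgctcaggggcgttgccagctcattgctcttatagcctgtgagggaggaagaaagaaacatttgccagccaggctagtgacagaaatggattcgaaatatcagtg
AKR1C3 window 1: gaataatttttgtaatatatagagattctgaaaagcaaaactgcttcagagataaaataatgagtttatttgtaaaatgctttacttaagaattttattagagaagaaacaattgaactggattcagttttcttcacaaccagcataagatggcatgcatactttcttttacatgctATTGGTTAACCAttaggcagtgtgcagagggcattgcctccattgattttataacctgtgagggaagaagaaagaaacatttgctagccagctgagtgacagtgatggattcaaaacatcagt
AKR1C3 window 2: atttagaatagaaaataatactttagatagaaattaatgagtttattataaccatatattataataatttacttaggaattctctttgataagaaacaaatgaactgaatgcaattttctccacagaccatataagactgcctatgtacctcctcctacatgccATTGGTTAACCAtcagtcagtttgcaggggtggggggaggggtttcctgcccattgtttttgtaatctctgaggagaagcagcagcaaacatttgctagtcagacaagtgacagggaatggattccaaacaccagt
The windows are 69.4% to 74.7% identical in pairs. The shared run contains the reverse strand of the CCAAT box and occurs in 5 of all 35116 windows, those of AKR1C1, AKR1C2, AKR1C3 and PPFIA2. A TATA box was found in AKR1C3 window 1 and a TEAD site in AKR1C3 window 2, and none of the 3 windows holds an antioxidant or xenobiotic response core.

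AKR1A1, aldehyde reductase, which reduces a broad range of aldehydes, differed the other way. It was 10.5, 10.5 and 13.2 FPKM at 2 kPa and 9.11, 5.49 and 8.15 FPKM at 25 kPa, so that every stiff-gel library was below every soft-gel library. Its log2 fold change was −0.55 (95% interval −0.998 to −0.10, limma adjusted p = 0.396). AKR7A3, a reductase of aflatoxin aldehydes named here after its values were seen, had libraries that did not overlap either, at 0.23 to 0.34 FPKM and 0.11 to 0.21 FPKM. AKR1E2 had an estimate of 0.32 with overlapping libraries, and AKR1B15 was listed at 0.01 to 0.03 FPKM in both groups.

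**Figure D4:**
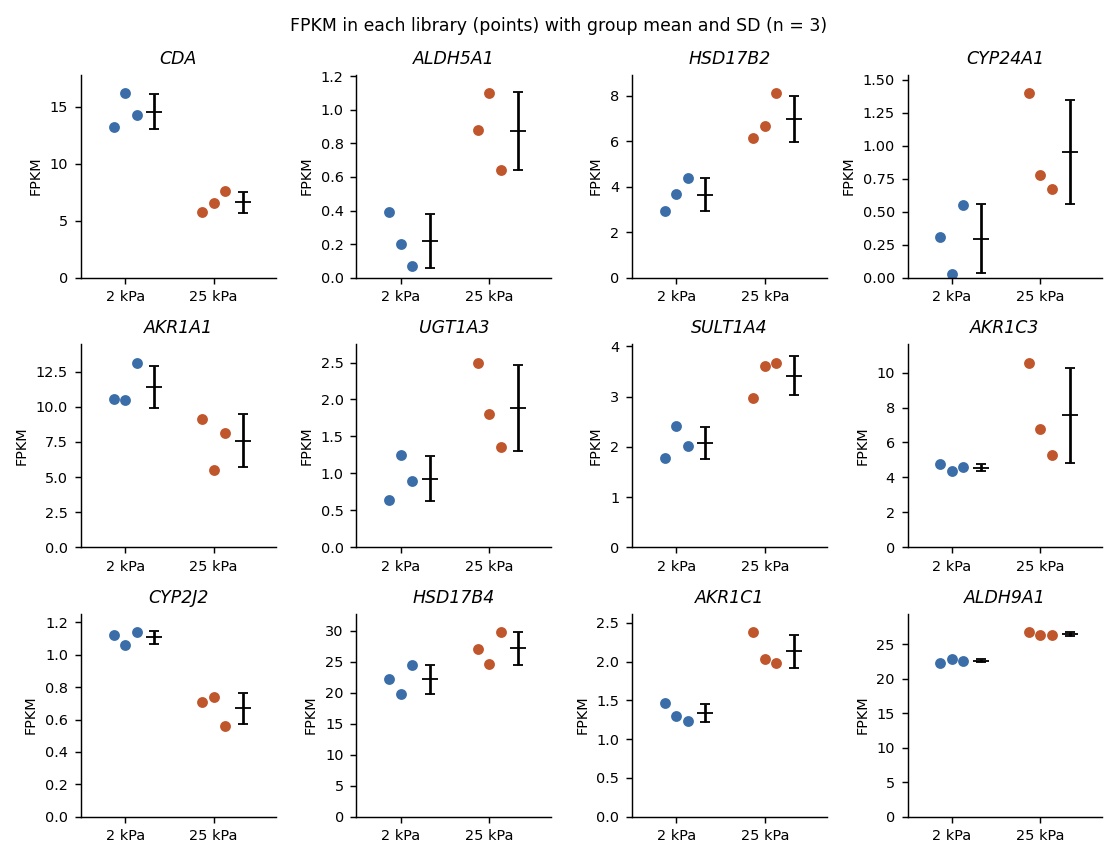
FPKM in each library (points) at 2 kPa (blue) and 25 kPa (orange) for the 12 members described singly whose libraries do not overlap between groups, with the mean and SD of 3 libraries beside them and every axis starting at 0. CDA, AKR1A1 and CYP2J2 are lower at 25 kPa and the other 9 are higher, by margins that are narrow for HSD17B4 and UGT1A3.

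Of the aldehyde dehydrogenases, ALDH9A1 oxidises aminobutyraldehyde and the aldehyde of the carnitine pathway. It was 22.3, 22.9 and 22.6 FPKM at 2 kPa and 26.7, 26.3 and 26.3 FPKM at 25 kPa, a ratio of means of 1.17. The libraries within a group were almost equal, and the lowest at 25 kPa was 3.45 FPKM above the highest at 2 kPa. Its log2 fold change was 0.22 (95% interval −0.01 to 0.45, limma adjusted p = 0.523), where limma draws the spread of a gene towards that of genes of like level. With FPKM rescaled to equal library sums the log2 fold change was 0.10.

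ALDH5A1, the mitochondrial succinate semialdehyde dehydrogenase that ends the breakdown of GABA, was 0.39, 0.20 and 0.07 FPKM at 2 kPa and 0.88, 1.1 and 0.64 FPKM at 25 kPa. All stiff-gel libraries were above all soft-gel libraries, at levels around or below 1 FPKM. The log2 fold change of 0.62 (95% interval 0.29 to 0.95, limma adjusted p = 0.193) understates the ratio of the means, 3.97, because of the added 1. With pseudocounts of 0.1 and 0.01 it was 1.71 and 2.19, larger in size than that of CDA. The other 11 ALDH members had overlapping libraries and estimates from −0.28 to 0.30. Among these were the abundant ALDH2, which clears acetaldehyde, ALDH1B1, a mitochondrial enzyme known from colorectal tumours, and ALDH3A2, which oxidises fatty aldehydes. ALDH2 was 22.3 to 23.8 FPKM at 2 kPa and 21.5 to 23.4 FPKM at 25 kPa, with a 95% interval of −0.28 to 0.20. ALDH1B1 was 12.7 to 14.8 FPKM and 12.8 to 14.3 FPKM, with a 95% interval of −0.30 to 0.28. ALDH1A1, the retinaldehyde dehydrogenase used as a stem cell marker, was at most 0.08 FPKM.

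Of the P450s, 6 of 12 members were below 1 FPKM on average and only CYP27A1 exceeded 10 FPKM. CYP24A1, which inactivates vitamin D, was 0.31, 0.03 and 0.55 FPKM at 2 kPa and 1.40, 0.78 and 0.67 FPKM at 25 kPa. The groups did not overlap, but the soft-gel values ranged widely, and one was close to 0.01 FPKM, the lowest value in the table. Its log2 fold change was 0.59 (95% interval 0.15 to 1.03, limma adjusted p = 0.347). CYP27B1, which makes active vitamin D, was 1.13 to 1.67 FPKM at 2 kPa and 0.62 to 1.51 FPKM at 25 kPa, with an estimate of −0.23 (95% interval −0.73 to 0.26). CYP27A1, sterol 27-hydroxylase, was 8.6, 13.4 and 10.8 FPKM at 2 kPa and 9.99, 12.3 and 11.1 FPKM at 25 kPa, and the estimate of 0.04 (95% interval −0.37 to 0.44) changed sign with the setting.

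CYP2J2, which turns arachidonic acid into epoxides, was 1.12, 1.06 and 1.14 FPKM at 2 kPa and 0.71, 0.74 and 0.56 FPKM at 25 kPa. These groups were tight and apart, with a log2 fold change of −0.34 (95% interval −0.67 to −0.003, limma adjusted p = 0.486). The other 8 P450s had overlapping libraries and estimates from −0.25 to 0.41. They include CYP1A1 and CYP1B1, the classical targets of the aryl hydrocarbon receptor, with estimates of 0.05 and −0.14, and CYP51A1, the demethylase of cholesterol synthesis, with 0.41 (95% interval −0.42 to 1.25). In the transcripts of CYP51A1, 78.6% of the 50-base stretches also occur in other annotated genes, 78.2% in AC000120.2, so that its level is uncertain.

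All 4 members that conjugate with a sugar or sulphate had estimates above 0, that of UGT8 barely, where 59.6% of all genes did. The estimates of the members with a GST symbol lay on both sides of 0. With equal library sums 3 of the 4 members that conjugate with a sugar or sulphate stayed above 0. As deposited, 2 of these 4 had an unadjusted p under 0.05 by limma, against 10.2% of all genes. The 2 became 0 with equal library sums and with the replicate number as a block. They also became 0 without 2 kPa replicate 3, 25 kPa replicate 1 or 25 kPa replicate 2. UGT1A3 glucuronidates bile acids, oestrogens and drugs. It was 0.64, 1.25 and 0.90 FPKM at 2 kPa and 2.50, 1.80 and 1.35 FPKM at 25 kPa, so that the closest libraries differed by 0.10 FPKM. Its log2 fold change was 0.57 (95% interval 0.06 to 1.09, limma adjusted p = 0.439). UGT1A4 was 0.75, 0.32 and 0.47 FPKM at 2 kPa and 0.85, 0.69 and 1.14 FPKM at 25 kPa, with overlapping libraries and an estimate of 0.33 (95% interval −0.04 to 0.69). UGT8, which makes galactosylceramide and not a drug conjugate, was 4.24, 3.84 and 2.72 FPKM at 2 kPa and 4.35, 2.56 and 4.14 FPKM at 25 kPa, with an estimate of 0.02 whose sign depended on the setting.

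UGT1A3 and UGT1A4 share their last exons in 1 locus on chromosome 2 of GRCh38, where both end at 233773299, and differ in their first exon. Their coding sequences are 96.3% identical, and 79.3% and 72.5% of their 50-base stretches occur in another gene, mostly UGT1A6. The first 60 coding bases, from the exon that tells them apart, are shown with differing positions in capitals.
UGT1A3: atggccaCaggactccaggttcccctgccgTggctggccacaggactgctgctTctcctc
UGT1A4: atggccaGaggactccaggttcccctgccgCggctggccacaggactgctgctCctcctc
Only 3 of these 60 bases differ, and the split of reads between the UGT1A genes is uncertain.

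SULT1A4, which sulphates dopamine and other catecholamines, was 1.78, 2.42 and 2.02 FPKM at 2 kPa and 2.97, 3.61 and 3.68 FPKM at 25 kPa. No library of one group entered the range of the other, and the log2 fold change was 0.53 (95% interval 0.04 to 1.01, limma adjusted p = 0.448). The coding sequence of SULT1A4 is identical to that of its copy SULT1A3 on chromosome 16 over all 885 bases, and the start of both is shown for that reason.
SULT1A4: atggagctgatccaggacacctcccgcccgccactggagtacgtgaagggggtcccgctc
With 97.2% of its 50-base stretches shared, the value of SULT1A4 cannot be assigned to this copy rather than to SULT1A3, which had no row here.

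Among the 7 glutathione S-transferases, 0 had an unadjusted p under 0.05 by limma, against 10.2% of all genes. Libraries that did not overlap were found for 0 of the 7, against 16% of all genes. With only 7 members, counts of 0 are not far from these shares. GSTP1 was 720, 569 and 754 FPKM at 2 kPa and 705, 812 and 649 FPKM at 25 kPa, with an estimate of 0.09 (95% interval −0.34 to 0.51). The 3 libraries on one side of the split along the first principal component, at 720, 754 and 812 FPKM, were all above the 3 on the other side, and the sign of the estimate depended on the scaling. The estimates of the other 6 ranged from −0.43 for GSTO1 to 0.16 for GSTCD. Of the quinone reductases, NQO1 was 13.9, 12.2 and 18.4 FPKM at 2 kPa and 20.0, 17.7 and 16.1 FPKM at 25 kPa. Its libraries overlapped, with an estimate of 0.27 (95% interval −0.11 to 0.65). NQO2 was below 1 FPKM in every library. ADH5, the formaldehyde-clearing class III alcohol dehydrogenase, was 35.5, 31.9 and 42.9 FPKM at 2 kPa and 39.6, 39.8 and 40.0 FPKM at 25 kPa, with an estimate of 0.12 (95% interval −0.17 to 0.41). The stiff-gel libraries of ADH5 were nearly equal and lay inside the range of the soft-gel libraries.

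The precision of these values limits what can be said of members that did not differ. For 19 of the 55 members the whole 95% interval lay between −0.5 and 0.5 on the log2 scale, and 8 of these had a mean of at least 1 FPKM. For members below 1 FPKM the added 1 narrows the interval, so that it does not bound the ratio of the means. HSD11B1, for example, had a ratio of 0.59 with an interval of −0.47 to 0.15. The intervals of the members outside the 19 reached beyond these bounds, so that a larger difference was not excluded for them either.

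The regulators of these enzymes were measured too. Of 25 factors listed, 11 had a row, and limma gave 0 with an adjusted p under 0.05 and 2 with an unadjusted p under 0.05, both higher at 25 kPa, against 10.2% of all genes. With equal library sums the calls were 0 higher and 1 lower, and estimates above 0 went from 6 to 3. NFE2L2, the transcription factor of the antioxidant response, was 2.84, 3.82 and 2.51 FPKM at 2 kPa and 4.86, 4.06 and 7.29 FPKM at 25 kPa, which gave a log2 fold change of 0.64 (adjusted p = 0.426 by limma). Its partner MAFK was 2.23, 2.26 and 0.74 FPKM at 2 kPa and 3.15, 4.26 and 2.77 FPKM at 25 kPa, which gave a log2 fold change of 0.72 (adjusted p = 0.457 by limma). In the FPKM as deposited, both were higher in every stiff-gel library than in any soft-gel library. Over the other settings the limma adjusted p for NFE2L2 was 0.318 to 0.812. The most abundant factor, NR1H2, an oxysterol receptor, had an estimate of −0.21 with overlapping libraries.

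Of 20 genes of glutathione and NADPH supply, 16 had a row, and limma gave 0 with an adjusted p under 0.05. At an unadjusted p under 0.05 it gave 5 (31.25%, against 10.2% of all genes). Of these, 4 were higher at 25 kPa (1 after rescaling to equal library sums). GSS, glutathione synthetase, was 0.37, 0.36 and 0.42 FPKM at 2 kPa and 1.01, 1.21 and 1.09 FPKM at 25 kPa, which gave a log2 fold change of 0.60 (adjusted p = 0.163 by limma). GSR, glutathione reductase, was 37.8, 31.6 and 30.9 FPKM at 2 kPa and 50.6, 43.2 and 42.0 FPKM at 25 kPa, which gave a log2 fold change of 0.43 (adjusted p = 0.296 by limma). PGD, an NADPH-forming enzyme of the pentose phosphate pathway, and SLC7A11, the cystine importer, had log2 fold changes of 0.34 and 0.60 with libraries that did not overlap. HMOX1, haem oxygenase, was lower, at 6.81, 6.52 and 7.97 FPKM at 2 kPa and 4.25, 5.32 and 5.72 FPKM at 25 kPa. PRDX1, the most abundant gene of this list, was 332 to 452 FPKM at 2 kPa and 394 to 435 FPKM at 25 kPa.

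Retinoid handling outside the families had 12 of 20 genes with a row. Of the 12, 10 had estimates below 0, as they did under each scaling, whereas 59.6% of all genes had estimates above 0. Without 2 kPa replicate 2 or without 25 kPa replicate 3 there were 8 below 0, and without 25 kPa replicate 2 there were 9. By limma 0 had an adjusted p under 0.05 and 3 (25%, against 10.2% of all genes) an unadjusted p under 0.05. These were 1 higher and 2 lower (0 and 3 with equal library sums). CRABP2, which carries retinoic acid to its receptor, was 57.7, 53.9 and 69.8 FPKM at 2 kPa and 34.8, 47.5 and 35.8 FPKM at 25 kPa, which gave a log2 fold change of −0.61 (adjusted p = 0.218 by limma). RDH5, a retinol dehydrogenase, had a log2 fold change of −0.53, whereas DHRS3, which reduces retinal back to retinol, had one of 0.59. For all 3 the libraries did not overlap. Among members that act on retinoids, the estimates of ALDH1A3 and CYP26A1, which make and degrade retinoic acid, were −0.14 and −0.20 with overlapping libraries.

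Steroid and sterol synthesis outside the families had 17 of 25 genes with a row, with 0 at an adjusted p under 0.05 by limma. At an unadjusted p under 0.05 limma gave 4 (23.5%, against 10.2% of all genes), 3 higher and 1 lower. With equal library sums these were 1 higher and 2 lower. Estimates above 0 went from 11 (64.7%, against 59.6% of all genes) to 8 with that rescaling. FDX1, the ferredoxin that feeds electrons to mitochondrial P450s such as CYP27A1 and CYP24A1, was 9.59, 8.39 and 9.33 FPKM at 2 kPa and 11.9, 12.7 and 11.7 FPKM at 25 kPa, which gave a log2 fold change of 0.37 (adjusted p = 0.377 by limma). IDI1 and MVD of the mevalonate pathway had log2 fold changes of 0.53 and 0.42, and TSPO of the outer mitochondrial membrane had one of −0.56. EBP, the most abundant gene of the list, was 77.9 to 82.9 FPKM at 2 kPa and 89.0 to 97.4 FPKM at 25 kPa. For each of these 5 genes the libraries of the groups did not overlap. Of 36 other phase I and II enzymes, 18 had a row, and 1 (5.56%, against 10.2% of all genes) had an unadjusted p under 0.05 by limma. With equal library sums there were 3, all lower. As deposited it was CYB5B, an electron carrier of the outer mitochondrial membrane, with a log2 fold change of −0.46 (adjusted p = 0.441 by limma). Of 9 drug efflux transporters, 6 had a row, 0 had an unadjusted p under 0.05 by limma, and their estimates lay between −0.04 and 0.08, with all 6 below 0 after rescaling to equal library sums. ABCC4, the most abundant, was 5.37 to 7.14 FPKM at 2 kPa and 4.54 to 7.97 FPKM at 25 kPa.

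**Figure D5:**
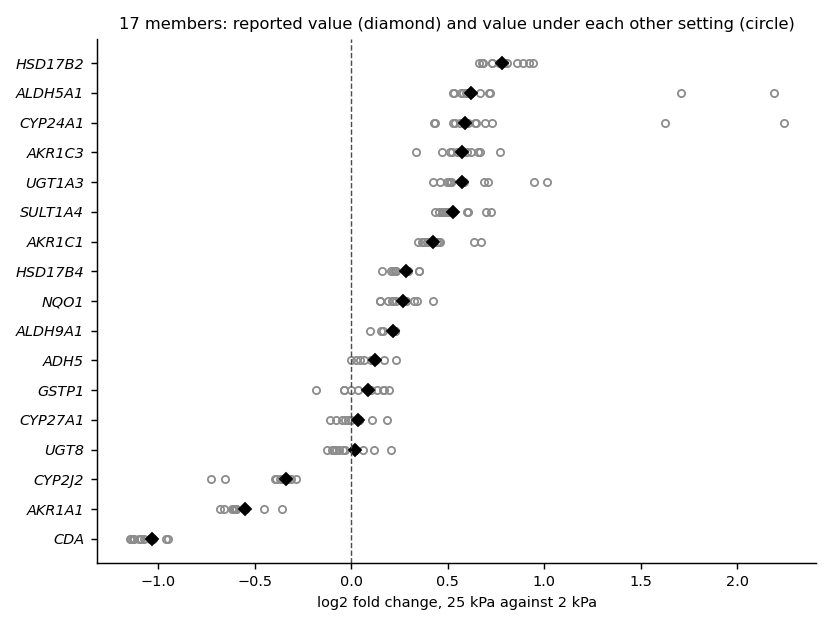
Log2 fold change at 25 kPa against 2 kPa for the 17 members described singly by rule, as reported (black diamonds) and under each of the other settings (open circles). CDA, AKR1A1 and CYP2J2 stay left of 0 and the members from ALDH9A1 upwards stay right of it, while ADH5, GSTP1, CYP27A1 and UGT8 fall on both sides. The far right circles of ALDH5A1 and CYP24A1 come from the smaller pseudocounts.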

How the data were processed

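RNA of SW480 cells on 2 kPa or 25 kPa hydrogel was sequenced, with 3 libraries each, and grouped by the sample labels. The authors deposited FPKM per gene symbol and library, with 2 decimals and replicates not pooled. The submitters' processing notes name HISAT, StringTie, Bowtie2, RSEM and hg18 without roles or order. The depth of the libraries is unknown, so that no counting interval can be given and the precision rests on the spread between libraries.

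The deposited FPKM of all 8529 genes were taken without a filter to the log2(FPKM + 1) scale. Groups were compared two-sided with limma 3.58.1 under R 4.3.3, where eBayes moderated the lmFit variances along a trend over the mean, with Benjamini-Hochberg adjustment over all genes and a threshold of 0.05. Intervals are 95% intervals of that fit. The study's methods name DESeq2, which models counts and was not run on FPKM. The programs were tested on data simulated with the spread of these libraries, in which 200 of the better expressed genes were changed. With a log2 change of 0.5, 0 of the 200 passed the adjusted threshold. With 1.0 it was 100 and with 1.5 it was 160. Python 3.11.15 with pandas 2.3.3, scipy 1.17.1 and matplotlib 3.10.9 was used for the rest.

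Positions and shared 50-base stretches come from GENCODE 29 (GRCh38), coding identities from pairwise alignment with biopython 1.88, and promoter windows, 250 bases before to 50 after the start, from RefSeq (GRCh38.p14), with a window for 45 of 55 members. None of these is the build in the notes.

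Members and gene lists were chosen with earlier results of these data known. Described singly were CDA, ALDH9A1, members with an unadjusted p under 0.05, members without overlap and a log2 fold change of at least 0.3 in size, and the most abundant member of each family. Of the other lists these were genes with an unadjusted p under 0.05 and the most abundant gene. The alternatives tried were the pseudocounts 0.1 and 0.01, only genes averaging at least 1 FPKM, equal library sums, quantile normalisation, median centring, no variance trend, the replicate number as a block, and each library left out. A block for the split along the first principal component was added after seeing the data.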

Additional observations from a re-analysis of the deposited data

How the results depend on the processing

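The 9 members with an unadjusted p under 0.05 kept their direction in every setting that held them, as did ALDH9A1, HSD17B4, AKR1C1 and NQO1. Their unadjusted p stayed under 0.05 in 15 of 15 settings for CDA and HSD17B2, 14 of 14 for ALDH5A1, 13 of 14 for CYP24A1, 13 of 15 for AKR1A1, 8 of 15 for UGT1A3 and SULT1A4, 6 of 15 for AKR1C3 and 4 of 14 for CYP2J2. CDA alone passed the adjusted threshold anywhere, so that the members past it numbered 1 in place of 0 with a pseudocount of 0.1 (log2 fold change −1.13) or 0.01 (−1.14), a mean FPKM of at least 1 (−1.03), median centring (−1.09) or the split of the libraries as a block (−1.07). The log2 fold change reversed for UGT8 with equal library sums (−0.078), quantile normalisation (−0.043), median centring (−0.035), the split as a block (−0.097) and without 2 kPa replicate 3 (−0.13), 25 kPa replicate 1 (−0.090) or 25 kPa replicate 3 (−0.061). It reversed for CYP27A1 with equal library sums (−0.079), quantile normalisation (−0.049), median centring (−0.015), the split as a block (−0.0013) and without 2 kPa replicate 1 (−0.11) or 25 kPa replicate 2 (−0.033). It reversed for GSTP1 with equal library sums (−0.036), quantile normalisation (−0.18) and without 2 kPa replicate 2 (−0.035), and for ADH5 with equal library sums (−0.0011). Leaving out 1 library gave at most 0.20 for UGT8, 0.18 for CYP27A1 and 0.17 for GSTP1. The cause was not tested.

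The median of the members was 0.11 with either smaller pseudocount, −0.011 with equal library sums, 0.0097 with quantile normalisation and −0.0023 with median centring, in place of 0.05, while that of all genes was 0.084, 0.093, −0.019, 0.0033 and −0.0043. The genes past the adjusted threshold numbered 17 with a pseudocount of 0.1, 6 without the variance trend and 61 with the split as a block, in place of 10. At an unadjusted p under 0.05, 297 genes and 3 members were higher with equal library sums and 390 genes with median centring, and 451 genes were lower with quantile normalisation or with the split as a block. Leaving out 1 library gave 3 to 11 genes past the adjusted threshold, 428 to 725 higher and 194 to 299 lower at an unadjusted p, 3 to 7 members higher and 1 to 3 lower, and a median of the members of 0.021 to 0.10. Members numbered 3 higher without 25 kPa replicate 1, 1 lower without 2 kPa replicate 3 or 25 kPa replicate 2, and their median was 0.10 without 2 kPa replicate 1.

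The labels number the libraries in each group. Same-numbered libraries deviated from their group means with correlations of 0.115, −0.267 and −0.125, which gave no sign of pairing. With 3 libraries a group, these correlations cannot exclude that same-numbered libraries were handled together. With the replicate block 3 genes and 0 members passed the adjusted threshold, and 5 members were higher and 2 lower at an unadjusted p under 0.05.

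The read depth is unknown, and 19 members below 1 FPKM rest on values with 2 decimals whose fold changes depend on the pseudocount. For ALDH5A1 the log2 fold change ran from 0.53 to 2.19 and for CYP24A1 from 0.43 to 2.24 over the settings. With 3 libraries a group, an adjusted p above the threshold does not show that a member was unchanged.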
